A study of Mus musculus with 54 samples.

Results

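Rpl29 is the gene of ribosomal protein L29, and it was followed here in all 54 libraries together with 2 features, Gm10709 and ENSMUSG00000094446, whose counts moved with it. These 3 features, of 54232 listed in every library, were chosen by their measured levels in the APPSWE brain cohort, which fell into a low and a high set of libraries. Their levels in that cohort are therefore given as a description, without a test. All 3 features passed the filter on low counts in each fit.

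Male mice on a BL6 background were injected intraperitoneally each day for 14 days with vehicle or with 22.5 mg/kg of Cmpd60, an inhibitor of the histone deacetylases HDAC1 and HDAC2, and poly(A) RNA was then sequenced from whole tissue. Natural aged mice of about 20 months gave brain (6 vehicle, 6 Cmpd60), heart (6 vehicle, 5 Cmpd60) and kidney (5 vehicle, 6 Cmpd60). The dementia cohort, of about 6 to 7 months, gave brain only. This age follows the design text of the series, whereas the protocol text in all labels gives 20 months. APPSWE-1349 mice (6 vehicle, 4 Cmpd60) carry a transgene for human amyloid precursor protein with the Swedish mutation, and AD_control mice (5 vehicle, 5 Cmpd60) are the control littermates of that line, whose genotype the labels do not spell out further. The mouse model is 1 transgenic line, and the aged cohort has no young group. The labels do not tell which aged tissues came from the same mouse, so these libraries entered the tests as separate samples, and p-values measure only the spread between libraries.

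Ribosomal protein L29 is part of the large (60S) subunit of the ribosome. The same protein was also described as a heparin and heparan sulfate interacting protein at the cell surface. Mice without Rpl29 are viable and small, whereas loss of many other ribosomal proteins is lethal in the embryo. Genes of ribosomal proteins are transcribed strongly in every tissue and have many intronless processed copies across mammalian genomes.

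In the reference used here (NCBIM37 with GENCODE vM1) Rpl29 lay on the forward strand at chr9:106331785-106333899. Gm10709 lay on the forward strand of the same chromosome, at chr9:7751725-7752207, and GENCODE vM1 lists it as protein coding whereas the RefSeq table for mouse lists it as a pseudogene. ENSMUSG00000094446 is paired with no symbol in the tables used here and is named by its identifier. The coding sequences of Rpl29 and Gm10709 are shown because they decide how reads can be divided between both features: over 483 bases they differed at 4 positions, an identity of 99.2%. The stretch from coding position 181 to 480, with the differing bases in capitals, holds all 4 differences.

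Rpl29: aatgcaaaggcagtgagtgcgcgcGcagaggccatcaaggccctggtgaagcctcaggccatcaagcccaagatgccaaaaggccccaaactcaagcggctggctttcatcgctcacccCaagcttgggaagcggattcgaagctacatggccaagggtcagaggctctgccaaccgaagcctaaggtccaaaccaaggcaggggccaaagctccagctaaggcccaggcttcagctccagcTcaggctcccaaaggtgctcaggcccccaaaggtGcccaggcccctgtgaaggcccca

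Gm10709: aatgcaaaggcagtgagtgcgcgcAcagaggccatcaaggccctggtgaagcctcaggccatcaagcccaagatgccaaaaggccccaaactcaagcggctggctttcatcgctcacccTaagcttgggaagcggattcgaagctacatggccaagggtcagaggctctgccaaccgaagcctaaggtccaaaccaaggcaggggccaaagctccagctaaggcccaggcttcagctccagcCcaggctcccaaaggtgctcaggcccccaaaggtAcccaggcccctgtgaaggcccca

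The Rpl29 transcript, 710 bases long, matched 20 further places on 13 chromosomes of the reference genome at 95% identity or more over at least 500 bases, with identities from 95.1% to 99.3%. Of all 50-base windows of the transcript, 78.1% were found elsewhere in the genome without a difference, and of all 150-base windows 40.3%. The counting program leaves out reads that align to several places, so the 3 features hold only reads with a single reported alignment. How reads were divided between Rpl29 and its copies is therefore uncertain, and the values below are levels of uniquely placed reads.

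Gene counts ranged from 23584609 to 57430113 in the 34 aged libraries and from 25052335 to 55871402 in the 20 dementia libraries, and no library pair held identical values. Reads with several alignments made up 3.77% to 12.2% of all reads in the aged cohort and 3.08% to 3.59% in the dementia cohort. The dementia libraries listed 15044 to 24821 genes with a count, and replicates s155, s152 and s140 had the fewest, with 15044, 15084 and 15555 genes. Replicate s139 is vehicle in all its labels and Cmpd60 in the study's own table. It was kept as labelled, and values of the APPSWE treatment groups are also given without it or with it as Cmpd60. Xist read 2.14 CPM (counts scaled to the size of the library) in replicate s139 and less than 1 CPM in each of the other 53 libraries, and the Y-linked Ddx3y was above 1 CPM in all 54. The kidney labels are opposite in the title and the treatment field for all 11 kidney libraries. Titles were followed, and every direction given for Cmpd60 in kidney turns if the field is right. The kidney libraries taken as vehicle in the tissue comparisons would then change too. Mouse App did not separate the APPSWE from the AD_control libraries (2038 to 2384 CPM against 1966 to 2275 CPM), and since the transgene is human, App on the mouse annotation does not check the genotype labels. Prnp read 538.4 to 699.2 CPM in the APPSWE and 520.6 to 697.6 CPM in the AD_control libraries. Summed markers of kidney epithelium (5 genes) read 5095 to 9980 CPM in kidney and at most 7.74 CPM in the other tissues, those of heart muscle (5 genes) 59150 to 70423 CPM in heart and at most 298.8 CPM elsewhere, and those of neurons (5 genes) 4156 to 6815 CPM in brain and at most 84.7 CPM elsewhere. Each tissue thus carried its own markers.

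Rpl29 in the vehicle-treated AD_control brains was close to absent. Replicates s149, s150, s151, s154 and s155 read 0.628, 0.447, 0.645, 1.71 and 0 CPM, from 17, 17, 18, 44 and 0 reads. In the vehicle-treated APPSWE brains the 6 libraries ran from 24.7 to 103 CPM with a median of 35.9 CPM, from at least 669 reads each. The groups did not overlap, and the ratio of their medians was 57.1. Without replicate s139, left out or counted as Cmpd60, the APPSWE vehicle libraries ran from 30.8 to 103 CPM (median 36.8, n = 5) and the ratio was 58.7. None of these values lay between 1.71 and 24.7 CPM.

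Among the treated brains both levels occurred within 1 genotype. In the Cmpd60-treated AD_control mice replicates s153, s157 and s158 read 20.6, 21.8 and 20.8 CPM, whereas s152 and s156 read 0 and 0.438 CPM. The group thus held 3 libraries near 21 CPM and 2 close to or at 0. In the Cmpd60-treated APPSWE mice replicates s141, s143, s147 and s148 read 30.98, 16.5, 73.5 and 18.4 CPM. With s139 counted as Cmpd60 their range stayed 16.5 to 73.5 CPM with a median of 24.7 CPM (n = 5). All 10 APPSWE libraries and 3 of 10 AD_control libraries were therefore high. The counts of 0 in s152 and s155 allow up to 0.0929 and 0.119 CPM, from 3 counts over each library's total, which covers counting error only.

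Markers of brain cell types overlapped between the vehicle-treated AD_control and APPSWE libraries in all 7 lists. Summed over each list, neuron markers read 5386 to 5743 CPM against 5485 to 6340 CPM, astrocyte markers (4 genes) 2351 to 2879 against 2416 to 3219 CPM and oligodendrocyte markers (4 genes) 4882 to 5985 against 5131 to 5767 CPM. Microglia markers (4 genes) read 143.3 to 189.2 against 129.5 to 152.1 CPM, endothelium markers (3 genes) 96.4 to 182.3 against 132.7 to 162.7 CPM, choroid plexus markers (4 genes) 525.3 to 1195 against 386.6 to 1530 CPM and blood markers (2 genes) 30.6 to 325.2 against 74.9 to 190.8 CPM. Without s139 the ranges differed in 1 list, endothelium (132.7 to 159.8 CPM), and all 7 overlapped. Their part in the division of Rpl29 was not tested.

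**Figure D1:**
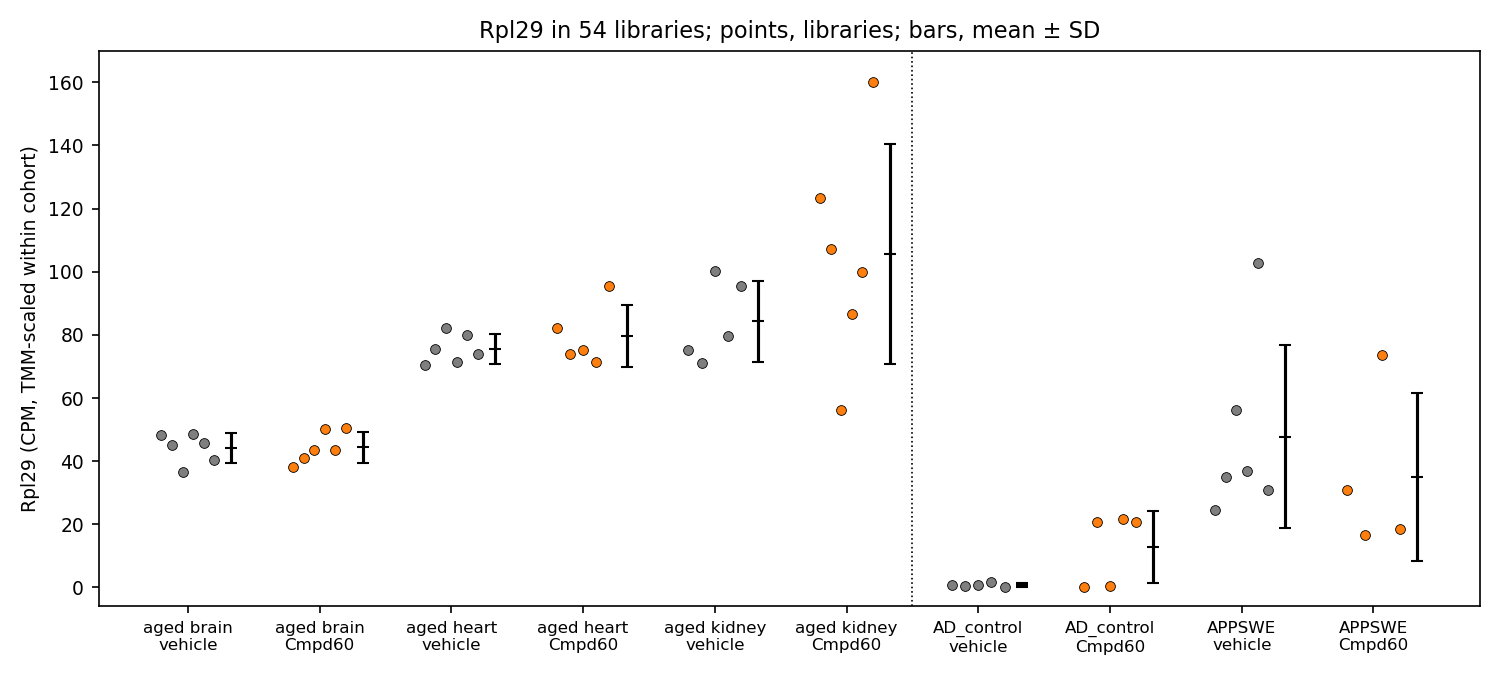
Rpl29 in CPM on a linear axis for each of the 54 libraries in 10 groups, with TMM sizes computed within each cohort (dotted line between cohorts); grey points are vehicle, orange points Cmpd60, and the bars beside them give mean ± SD. All 5 vehicle-treated AD_control libraries lie at or below 1.71 CPM, and the Cmpd60-treated AD_control libraries split into 2 near 0 and 3 near 21 CPM.

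Placed in order on the log2 CPM scale, with 2 counts added as a prior, the 20 dementia libraries showed their largest step between s154 (0.83) and s143 (4.05), with 7 libraries below it and 13 above. The step was 3.23 log2 units, a ratio of 9.67 in CPM. Below it, the next largest step was 2.97 log2 units and separated the 2 libraries without a read from the rest. Above it, no step between neighbours exceeded 0.61 log2 units, so the 13 high libraries formed a continuous series from 16.5 to 103 CPM. Steps of this size were not rare in the cohort: among 16551 features with a mean of at least 0.5 CPM, that of Rpl29 ranked 1482. Of the 16551 features 3 had their largest step between the same 7 and 13 libraries, and these were the 3 members, which were chosen for moving together in this cohort. The divisions of Rpl26, Rps2 and Rpl34, other ribosomal protein genes described below with large steps, were likewise those of 2, 1 and 1 features, each gene included. The 7 low libraries had 15044 to 23151 genes with a count and 3.08% to 3.51% of reads with several alignments, and the 13 high libraries 15555 to 24821 genes and 3.11% to 3.59%. Over all 20 libraries Rpl29 had a Pearson correlation of 0.24 with the number of genes detected, 0.15 with the percentage of reads with several alignments and 0.09 with the log2 gene count. Without s140, s152 and s155 the step was 3.22 log2 units, with 5 libraries below it.

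**Figure D2:**
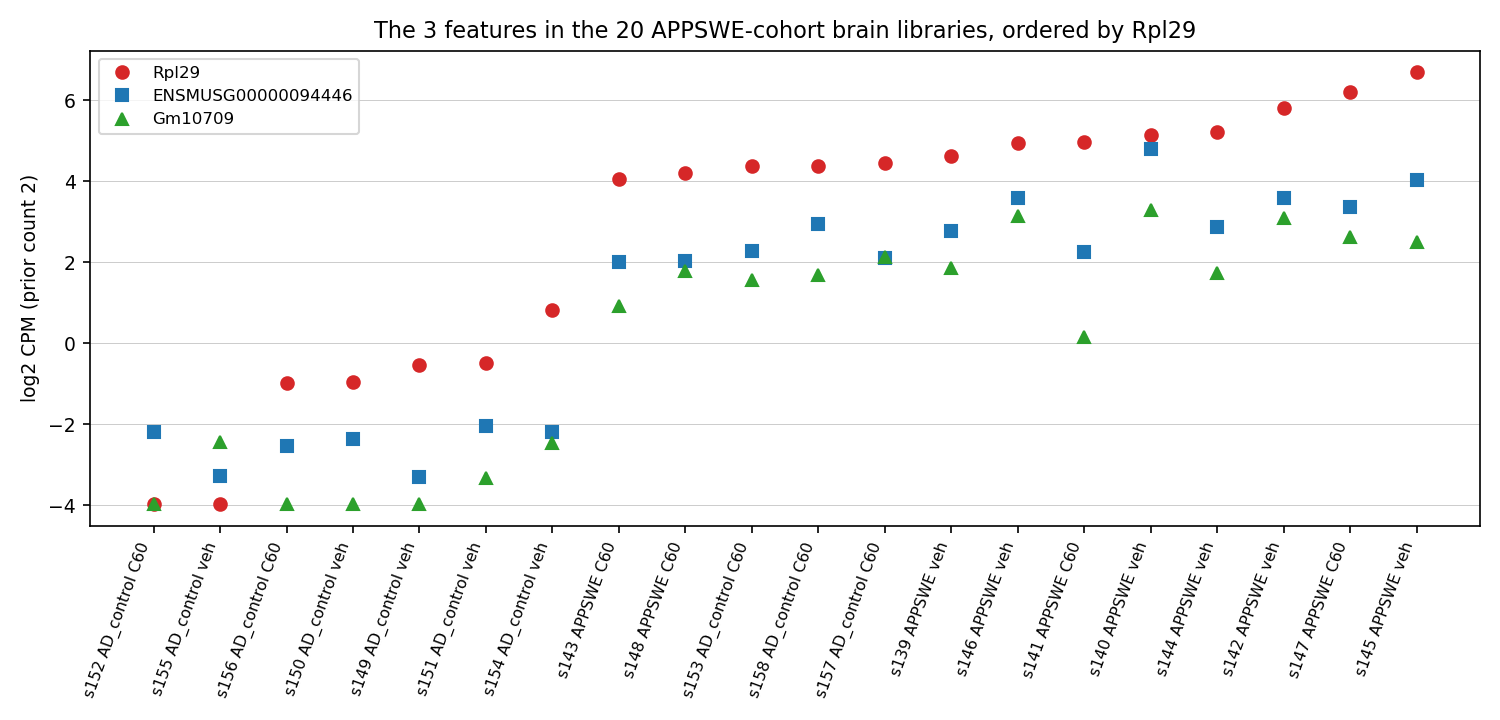
Log2 CPM (prior count 2) of Rpl29, ENSMUSG00000094446 and Gm10709 in the 20 brain libraries of the dementia cohort, ordered by Rpl29 (veh, vehicle; C60, Cmpd60). The same 7 AD_control libraries are low for all 3 features, and each feature's lowest value among the other 13 libraries is above its highest among these 7.

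Gm10709, the nearly identical copy, gave the same division at lower counts. The vehicle-treated AD_control replicates s149, s150, s151, s154 and s155 had 0, 0, 1, 3 and 3 reads. In the Cmpd60-treated AD_control group s152 and s156 had 0 reads, and s153, s157 and s158 had 92, 108 and 112. The APPSWE vehicle libraries ran from 3.26 to 9.70 CPM (median 7.05, n = 6), and the APPSWE Cmpd60 replicates s141, s143, s147 and s148 read 1.05, 1.82, 6.11 and 3.40 CPM. With s139 as Cmpd60 the APPSWE medians were 8.50 and 3.40 CPM (n = 5 each), and without it 8.50 and 2.61 CPM.

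ENSMUSG00000094446 had 1 to 5 reads in each of the 7 low libraries and at least 106 in each of the other 13. Its vehicle-treated AD_control libraries read 0.0369, 0.131, 0.179, 0.156 and 0.0401 CPM in replicates s149, s150, s151, s154 and s155. Among the Cmpd60-treated AD_control libraries s153, s157 and s158 read 4.76, 4.23 and 7.64 CPM, and s152 and s156 read 0.153 and 0.1096 CPM. The APPSWE vehicle group ran from 6.75 to 27.6 CPM (median 12.0, n = 6), the highest being replicate s140, and the APPSWE Cmpd60 group from 3.95 to 10.2 CPM (median 4.36, n = 4). Without s139 the lowest APPSWE vehicle library read 7.23 CPM, and with s139 as Cmpd60 the median of that group was 4.71 CPM (n = 5). Its step between low and high libraries was 4.05 log2 units, against 2.60 for Gm10709. All 3 members were thus free of overlap between vehicle-treated APPSWE and AD_control libraries, the contrast that the choice of members used, and over 20407 features the share higher in every APPSWE vehicle library was 0.172% (35 features). Without s139 the share was 0.262% (53 of 20202 features), and the 3 members were among them.

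Of the reads on the 3 features together, Rpl29 held a median of 68.0% in aged brain (n = 12), 71.5% in aged heart (n = 11), 72.2% in aged kidney (n = 11) and 73.7% in the APPSWE brain (n = 10). The 3 high libraries of the Cmpd60-treated AD_control group had 65.9% to 72.9%. Replicate s140 had the lowest share of all APPSWE libraries, 48.3%, with 38.3% on ENSMUSG00000094446, and s141 the highest, 84.3%. The 7 low libraries had 4 to 51 reads on all 3 features and no interpretable share. The APPSWE libraries thus spread more widely, from 48.3% to 84.3%, than the aged brain libraries, from 65.8% to 73.2%.

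Likeness between the 3 features was also measured within tissues. The Pearson correlation of log2 CPM between Rpl29 and ENSMUSG00000094446 was 0.58 over 12 brain libraries, 0.61 over 11 heart libraries and 0.87 over 11 kidney libraries, and that with Gm10709 was 0.38, 0.47 and 0.27. In the dementia cohort the values fall into 2 clusters, which alone gives a high correlation over all 20 libraries (0.94 and 0.92). Within the 13 high libraries it was 0.68 for ENSMUSG00000094446 and 0.49 for Gm10709. Points within a tissue share library depth, and Rpl29 and Gm10709, near-identical in sequence, can exchange reads. Whether ENSMUSG00000094446 can do so was not tested, since its sequence was not available.

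Other copies of Rpl29 were checked for the same division where the count files hold them. Of the 20 matching places in the reference genome, 12 had such a feature, Gm10709 included, and the others could not be checked. The count files hold 13 further features that match the transcript or carry its name, among them Rpl29-ps1, Rpl29-ps3 and Rpl29-ps5. Over the 20 dementia libraries Rpl29-ps5 had 42 reads in all, Rpl29-ps1 1 and Rpl29-ps3 0. Most reads on these features were on Gm13841, which was picked out after its values were seen and which had a read count above 0 in all 54 libraries. Gm13841 read 5.86 to 32.6 CPM in the 7 libraries low for Rpl29 and 9.58 to 29.8 CPM in the other 13, ranges that overlap nearly fully, and its correlation with Rpl29 over the 20 libraries was 0.09. In aged brain it read 6.50 to 9.02 CPM (n = 12), with TMM sizes computed in that cohort. Its correlation with Rpl29 was 0.63 in aged brain, 0.23 in aged heart (n = 11) and 0.83 in aged kidney (n = 11). The summed level of all 13 copies ran from 5.92 to 33.3 CPM in the dementia cohort and from 6.86 to 35.9 CPM in the aged cohort.

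Among 16550 other features of the dementia cohort, 2 had a Pearson correlation with Rpl29 above 0.9 over the 20 libraries, and these were Gm10709 and ENSMUSG00000094446. Both were chosen for moving with Rpl29 in this cohort, so their place follows from the choice. Next came Cnga4, an olfactory channel subunit, with 0.82, Armc7 with 0.81, the reductase gene Cyb5r4 with 0.81, 2410131K14Rik with 0.80, ENSMUSG00000097073 with 0.79 and the arginase gene Arg2 with 0.78. The lowest correlations were those of BC002163 (-0.77), Gm12183 (-0.76), ENSMUSG00000103897 (-0.74) and Actl6a, a chromatin remodelling subunit (-0.73). Several of these rested on the libraries with the fewest genes: Armc7 read 3.65 and 3.21 CPM in s152 and s155 and 7.35 CPM or more in every other library, and BC002163 read 4.24 and 4.21 CPM there and at most 0.931 CPM elsewhere. Without s140, s152 and s155 the correlation was 0.63 for Armc7, 0.51 for Arg2 and -0.54 for BC002163, while it was 0.98 for ENSMUSG00000094446, 0.97 for Gm10709 and 0.89 for ENSMUSG00000097073. The 8 highest then also held Abhd14a (0.93), Vill (0.84), Ctsh (0.78) and Cyb5r4 (0.72), all on chromosome 9 like Rpl29 and Gm10709. The remaining one was Rcn3 (0.68) on chromosome 7. Over all 20 libraries Ctsh had 0.18, and within the 13 high libraries Vill had 0.05 and Ctsh -0.03. The reason was not tested. Within the 13 high libraries Cnga4 had a correlation of 0.08 and Armc7 of 0.28, and the highest was 0.82, that of Hspd1. These values describe likeness over libraries that share depth and cluster, and no test was run on them.

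Neighbours of Rpl29 on chromosome 9 were examined in the same 20 libraries. Of the 10 protein-coding genes on either side, 19 of 20 passed the filter, and their correlations with Rpl29 over the 20 libraries ran from -0.42 (Gpr62) to 0.77 (Dusp7, a MAP kinase phosphatase next to Rpl29), with 11 of 19 above 0. Ppm1m had 0.62 and Abhd14a, 2 genes downstream, 0.60, whereas Acy1, the adjacent gene downstream, had -0.30, Poc1a 0.44 and Col6a5 -0.31. Abhd14a read 6.91, 7.42, 6.95, 8.09 and 0 CPM in the vehicle-treated AD_control replicates s149, s150, s151, s154 and s155. It read 11.7, 11.2 and 11.8 CPM in s153, s157 and s158, 10.9 CPM in s152 and 6.10 CPM in s156. The APPSWE libraries read 9.65 to 18.4 CPM except s140, with 4.55 CPM. Without s140, s152 and s155 the correlation of Abhd14a was 0.93, the third highest of all 16550 features. That of Dusp7 was then 0.54 and that of Acy1 -0.62. The SD of log2 CPM of the 19 neighbours ran from 0.10 to 2.00, against 3.38 for Rpl29.

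**Figure D3:**
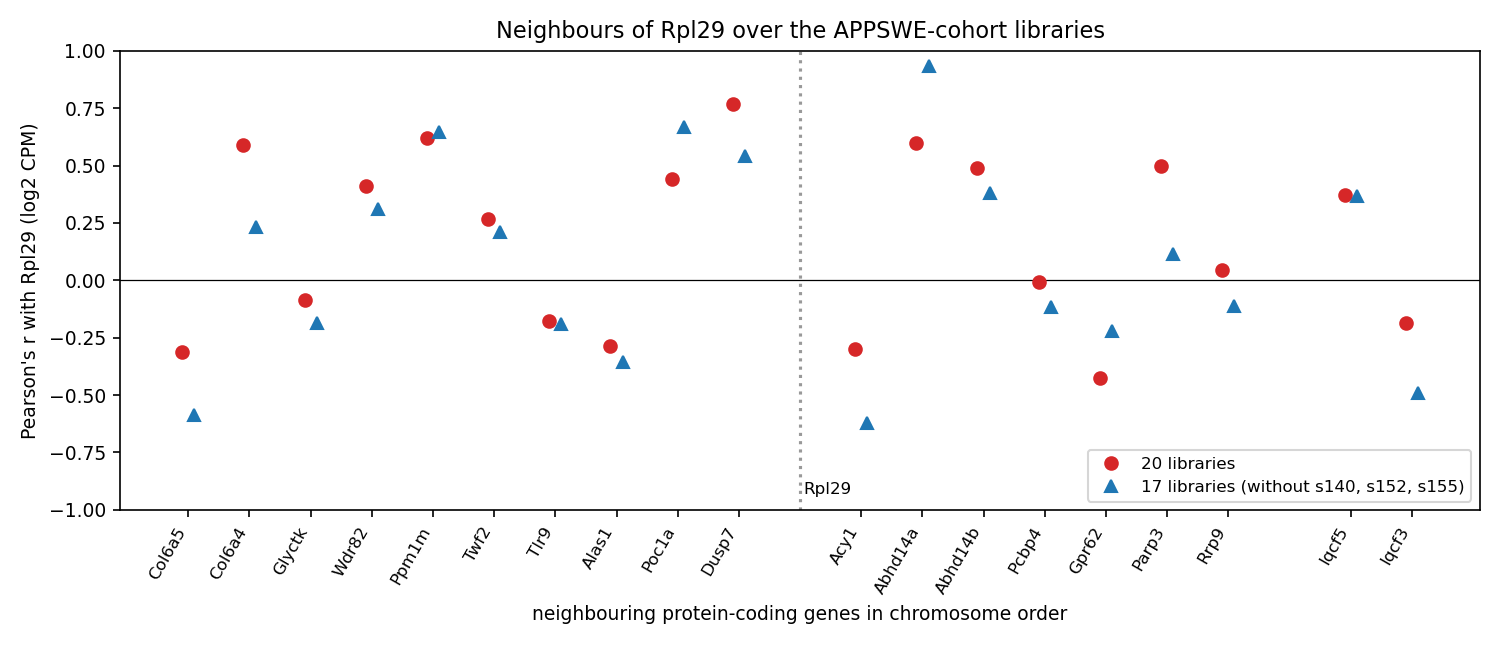
Pearson correlation of log2 CPM with Rpl29 for the 19 neighbouring protein-coding genes that passed the filter, in chromosome order around Rpl29 (dotted line), over all 20 dementia libraries (red circles) and over 17 without s140, s152 and s155 (blue triangles). Abhd14a has the highest triangle, 0.93, and Dusp7 the highest circle, 0.77.

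Other ribosomal protein genes were compared next, from lists of the large and small subunit in which 76 of 78 genes matched the files. In the dementia cohort Rpl29 had the largest SD of log2 CPM of all (3.38), while the median of the other 76 was 0.29. Rpl29 was chosen for its low and high levels in that cohort, so a large SD there follows from the choice. In aged brain its SD was 0.15, rank 52 from the top and below the median of 0.17, in aged heart 0.13 (rank 54) and in aged kidney 0.41 (rank 37). Spread in Rpl29 was therefore not a property of the gene in every cohort. The genes with the smallest SD in the dementia cohort were Rps3 (0.12, 208.6 to 280.7 CPM), Rpl4 (0.13, 364.8 to 504.0 CPM) and Rpl7 (0.14, 187.3 to 272.3 CPM). Correlations of the 76 genes with Rpl29 ran from -0.51 to 0.56, and 43 were below 0.

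**Figure D4:**
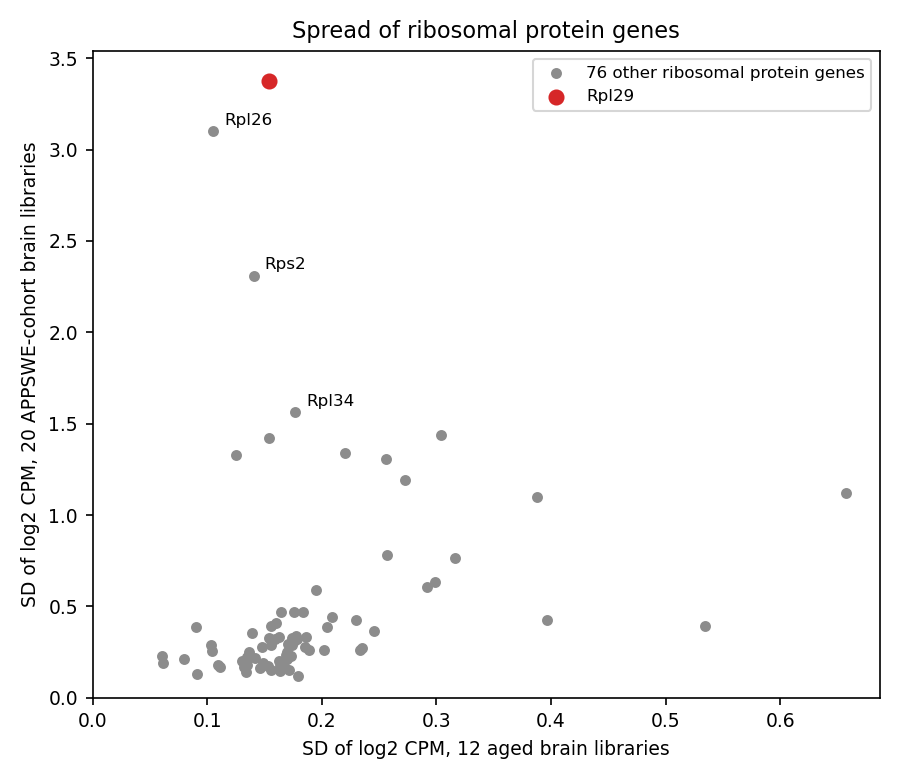
SD of log2 CPM (prior count 2) of each ribosomal protein gene over 12 aged brain libraries (horizontal axis) and over 20 dementia-cohort brain libraries (vertical axis); grey points are the 76 other genes and the red point is Rpl29. Rpl29 is highest on the vertical axis at 3.38 and lies at 0.15 on the horizontal axis.

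Rpl26, Rps2 and Rpl34 had the next largest SDs in the dementia cohort, 3.10, 2.31 and 1.57, and each was low in a different set of libraries. Rpl26, of the large subunit, read at most 3.45 CPM in 7 libraries (s142, s144, s145, s151, s152, s153 and s158) and 68.1 CPM or more in the other 13. Its step of 4.28 log2 units was larger than that of Rpl29, and 2 of its 7 low libraries were also low for Rpl29. Rps2, of the small subunit, read at most 11.2 CPM in s142, s144, s151, s153 and s155 and at least 103.7 CPM elsewhere. Rpl34 read at most 2.92 CPM in s140, s141, s150 and s157 and at least 12.6 CPM elsewhere. Both genotypes held low libraries for each of these 3 genes, unlike for Rpl29. In aged brain the SDs of Rpl26, Rps2 and Rpl34 were 0.11, 0.14 and 0.18.

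**Figure D5:**
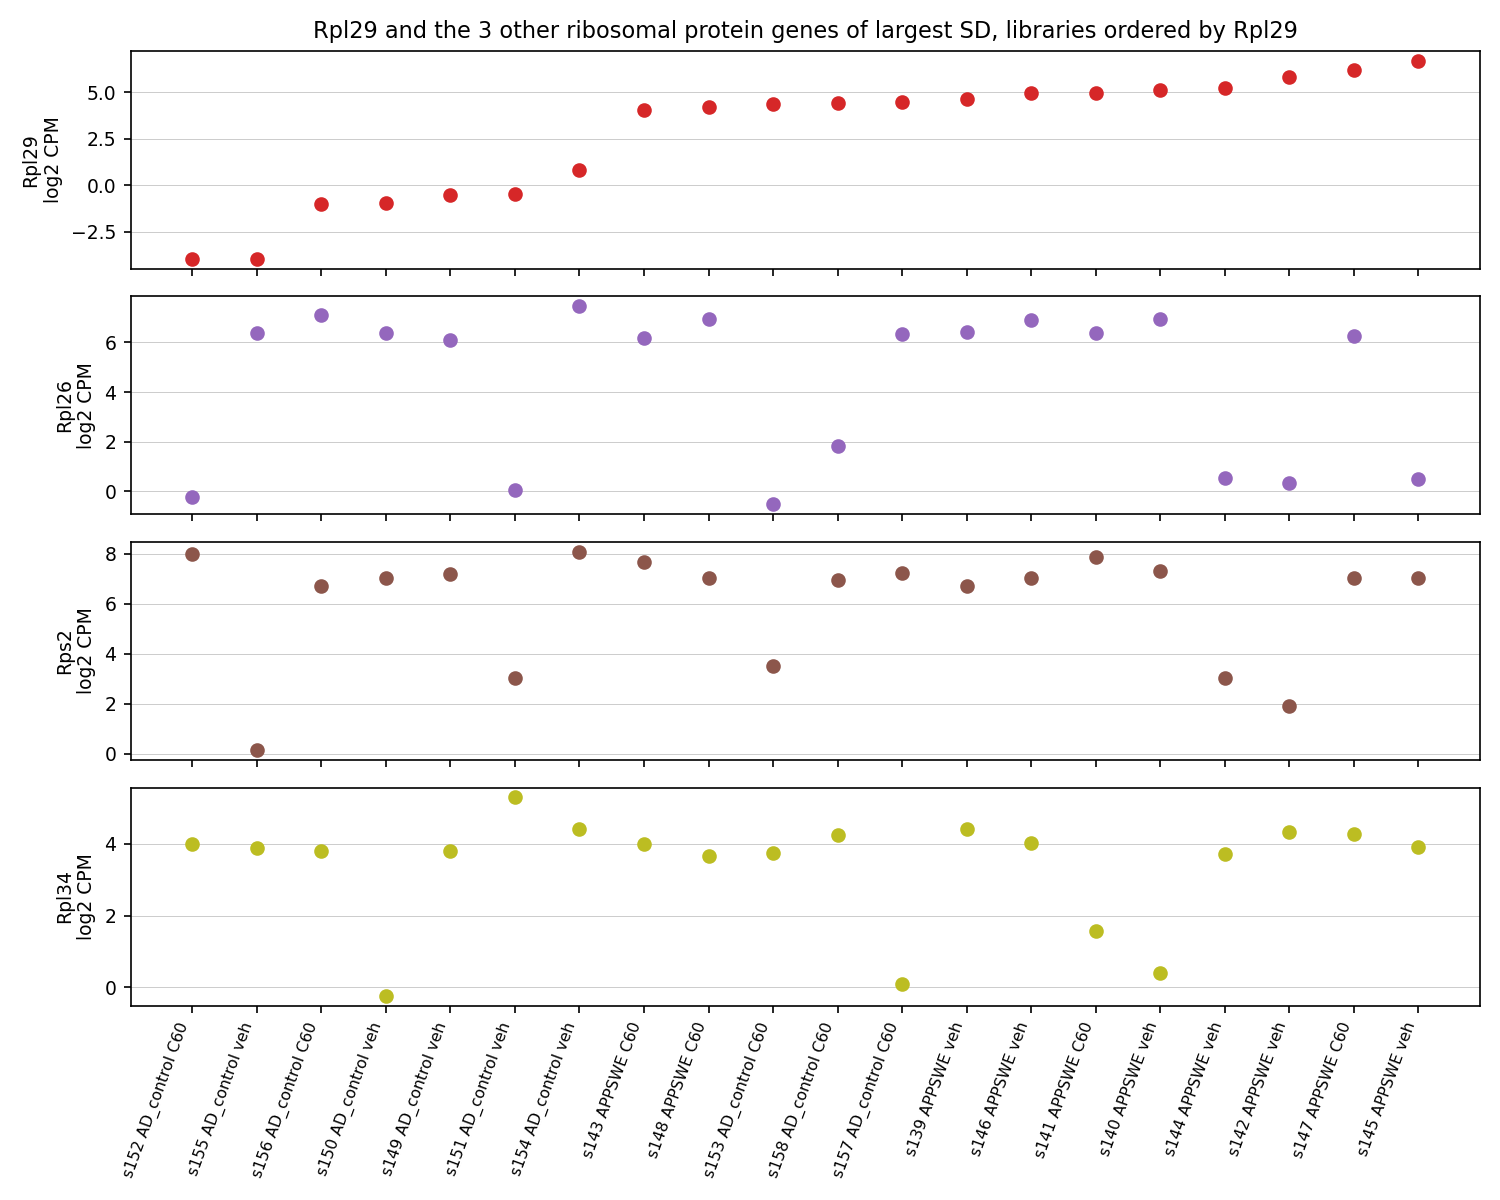
Log2 CPM (prior count 2) of Rpl29, Rpl26, Rps2 and Rpl34, one panel each with its own axis range, in the 20 dementia-cohort libraries in the order of Rpl29 (veh, vehicle; C60, Cmpd60). Each gene has a low set of libraries, 7 for Rpl29, 7 for Rpl26, 5 for Rps2 and 4 for Rpl34, and the sets differ.

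As a family, ribosomal protein genes passed no test in the dementia cohort. With edgeR's quasi-likelihood test and Benjamini-Hochberg adjustment 0 of 76 were called between APPSWE and AD_control mice under vehicle (0.00859% of all 23273 features called), between the same genotypes under Cmpd60 (0% called), or between Cmpd60 and vehicle in either genotype (0% called in each). The counts at an unadjusted p under 0.05 were 3 higher and 0 lower for genotype under vehicle (all features 2.43% higher and 5.92% lower), and 0 higher and 2 lower under Cmpd60 (0.477% and 0.872%). For Cmpd60 against vehicle in the APPSWE mice they were 0 higher and 25 lower, or 32.9% lower, beside 6.60% of all features higher and 2.18% lower. With s139 as Cmpd60 21 were lower, and without it 26. In the AD_control mice 1 was higher and 6 were lower, or 7.89% lower, beside 2.52% of all features higher and 1.24% lower. Limma-voom also called 0 in each. Estimates for Cmpd60 in the APPSWE mice were below 0 for 69 of 76 genes with a median log2 fold change of -0.23, against 0.02 over all features, and with s139 as Cmpd60 the median was -0.21 and without it -0.25. In the AD_control mice 64 of 76 were below 0 (median -0.13). These directions were the same with RLE size factors (69 and 64 of 76).

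The 13 heparan sulfate proteoglycan genes, whose products carry the chains that L29 can bind, likewise gave 0 calls with edgeR and with limma-voom in all 4 comparisons of the dementia cohort. At an unadjusted p under 0.05 there were 2 higher for Cmpd60 in the APPSWE mice (15.4%, all features 6.60%). There was 1 higher for Cmpd60 in the AD_control mice (7.69%, all features 2.52%). Between genotypes there were 0, beside 2.43% of all features higher and 5.92% lower under vehicle, and 0.477% and 0.872% under Cmpd60.

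Across aged tissues Rpl29 was lowest in brain. Vehicle-treated brain ran from 36.4 to 48.5 CPM (median 45.4, n = 6) and heart from 70.5 to 82.2 CPM (median 74.7, n = 6). Kidney replicates 45, 46, 47, 48 and 49 read 75.1, 71.2, 100, 79.7 and 95.6 CPM. Brain did not overlap with either tissue, and heart and kidney did. In edgeR the log2 fold change of kidney over brain was 0.99 (SE 0.14, adjusted p = 1.75e-07) and that of heart over brain 0.81 (SE 0.14, adjusted p = 3.58e-06). Kidney and heart differed by 0.18 (SE 0.14, adjusted p = 0.297), which does not exceed the spread. With the kidney groups taken from the treatment field, an alternative chosen after seeing the data, kidney was 0.51 above heart (SE 0.14, adjusted p = 0.00189, edgeR) and 1.31 above brain on the log2 scale, so the order of kidney and heart rests on which label is right. Calls were common here, since 72.5% of 27105 features passed between kidney and brain, 72.1% between heart and brain and 56.7% between kidney and heart. The share with every library higher than in brain was 30% for kidney and 25.3% for heart, and Rpl29 was the member that met it in both. As tissues were sequenced in bulk, fewer cells of a type and less RNA per cell cannot be told apart.

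Gm10709 in the vehicle groups ran from 3.12 to 6.14 CPM in brain (median 4.51, n = 6), 3.81 to 8.32 CPM in heart (median 5.94, n = 6) and 4.93 to 10.003 CPM in kidney (median 5.16, n = 5). It was higher in kidney than in brain by a log2 fold change of 0.56 (SE 0.22, adjusted p = 0.0212), and the heart and brain estimate of 0.37 did not pass (SE 0.21, adjusted p = 0.118). ENSMUSG00000094446 ran from 14.8 to 17.5 CPM in brain, 15.7 to 28.2 CPM in heart and 16.7 to 33.1 CPM in kidney. Its log2 fold change was 0.68 for kidney over brain (SE 0.25, adjusted p = 0.0175) and 0.47 for heart over brain (SE 0.25, adjusted p = 0.0864). Neither feature differed between kidney and heart beyond the spread (adjusted p = 0.479 and 0.521). These adjusted values come from the same edgeR fit over 34 libraries. With the kidney groups taken from the treatment field, edgeR gave larger values for kidney over brain. They were 0.69 (SE 0.21, adjusted p = 0.00377) for Gm10709 and 0.91 (SE 0.24, adjusted p = 0.00115) for ENSMUSG00000094446. Kidney against heart again did not pass for either (adjusted p = 0.197 and 0.117).

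The brain was also the lowest tissue for most of the ribosomal protein family. Of 76 genes, 50 were higher and 2 lower in kidney than in brain, with a median log2 fold change of 0.60 against -0.24 over all features. The share called, 68.4%, was close to the 72.5% of all features, while the share called higher was 65.8% beside 32.8% of all features. Between heart and brain 55 were higher and 6 lower (median 0.64, all features -0.44), which is 72.4% called higher beside 28.9% of all features. Rplp0, a protein of the ribosomal stalk, was 1.94 higher in kidney and 2.16 higher in heart on the log2 scale, while Rpl24 had log2 fold changes of -1.23 and -1.34. With RLE size factors the medians over all features shifted to -0.37 and -0.50, and 46 and 51 ribosomal protein genes were higher, beside 8176 and 7514 of 27105 features. Kidney against heart gave 6 higher (7.89%) and 12 lower (15.8%), beside 31.1% and 25.6% of all features. With RLE it gave 4 and 18, beside 7976 and 7361 of 27105 features. With the kidney groups taken from the treatment field it gave 20 higher and 2 lower, beside 8684 and 7173 of all features. Kidney against brain then gave 59 higher and 3 lower, beside 9071 and 11151 of all features. Of the 13 proteoglycan genes 8 were higher and 3 lower in kidney than in brain, and 7 were higher and 5 lower in heart than in brain, so that 84.6% and 92.3% were called in tissue comparisons where 72.5% and 72.1% of all features were. Among them glypican 4 (Gpc4) was 4.69 higher, syndecan 1 (Sdc1) 3.27 higher and the perlecan gene Hspg2 2.88 higher on the log2 scale, and syndecan 3 (Sdc3), a neuronal syndecan, had a log2 fold change of -2.32. Glypican 5 (Gpc5) and glypican 1 (Gpc1) were also lower in kidney than in brain, with log2 fold changes of -5.02 and -2.27. In heart Gpc1 was higher than in brain (2.85).

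Cmpd60 did not change Rpl29 detectably in any aged tissue. Treated brain ran from 38.2 to 50.5 CPM (median 43.5, n = 6) beside 36.4 to 48.5 CPM in vehicle, a log2 fold change of -0.019 (SE 0.076, adjusted p = 0.945, edgeR). Treated heart replicates 68, 69, 70, 71 and 72 read 82.3, 73.9, 75.1, 71.4 and 95.4 CPM, and the log2 fold change was 0.067 (SE 0.084, adjusted p = 0.801). Treated kidney ran from 56.3 to 160 CPM (median 104, n = 6), the widest range of any aged group, reaching beyond the vehicle libraries on both sides. Its log2 fold change was 0.32 (SE 0.20, adjusted p = 0.569), and -0.32 with the same p if the treatment field is right. In each tissue the treated and vehicle libraries overlapped. The response did not differ between tissues past the threshold, with adjusted p = 0.629 for kidney against brain and 0.727 for kidney against heart, and a larger p for brain against heart (0.0885%, 0.35% and 0.0517% of features passed). Few features passed in these fits, 0.3% in kidney, 0.0205% in brain and 1.18% in heart.

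For the other 2 members, log2 fold changes for Cmpd60 were 0.12 and 0.23 in kidney, -0.09 and -0.21 in brain and 0.12 and 0.17 in heart, for Gm10709 and ENSMUSG00000094446 in this order. None passed the adjusted threshold, and the smallest adjusted p was 0.358, for ENSMUSG00000094446 in brain, whose unadjusted p was 0.0473. Reads may be exchanged between Rpl29 and Gm10709, and the sequence of ENSMUSG00000094446 was not available. The counts of the 3 features were therefore also summed. The sum was 63.7 ± 7.10 CPM in treated and 65.5 ± 6.47 CPM in vehicle brain (SD, n = 6 each), with an exact two-sided permutation p = 0.652. In heart it was 112 ± 16.0 CPM (n = 5) against 104 ± 8.06 CPM (n = 6), with an exact permutation p = 0.364. In kidney it was 143 ± 51.4 CPM (n = 6) against 117 ± 21.0 CPM (n = 5), with an exact permutation p = 0.420. Adjusted over these 3 comparisons the exact p-values were 0.652, 0.630 and 0.630.

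Ribosomal protein genes gave 0 calls for Cmpd60 in any aged tissue with edgeR, limma-voom or DESeq2. At an unadjusted p under 0.05, 13 were higher and 0 lower in kidney, beside 5.71% of all features higher and 5.63% lower, which for the list are 17.1% and 0%. In brain 1 was higher and 11 lower (14.5% lower, all features 7.32% higher and 6.47% lower), and in heart 0 were higher and 1 lower (all features 7.28% and 6.22%). Estimates were above 0 for 71 of 76 in kidney (median log2 fold change 0.24, all features 0.00; 5 of 76 if the treatment field is right), for 12 in brain (median -0.09) and for 50 in heart (median 0.03), and for 71, 12 and 49 with RLE size factors. Among proteoglycan genes, syndecan 2 (Sdc2), a heparan sulfate carrier of the cell surface, was lower in the kidney libraries titled Cmpd60 than in those titled vehicle by a log2 fold change of -0.52 (SE 0.10, adjusted p = 0.0338, edgeR), and its response differed from that of heart by -0.64 (SE 0.12, adjusted p = 0.00847). With the groups of the treatment field it was higher in treated kidney (0.52), and the difference from heart was 0.40 and did not pass (SE 0.12, adjusted p = 0.0634). Sdc2 was the 1 proteoglycan gene of 13 called by edgeR in kidney (7.69%), with 0 of 13 in brain and 0 of 11 in heart. Of all features 0.3%, 0.0205% and 1.18% were called there. In kidney grouped by titles, limma-voom and DESeq2 each called 1 lower, beside 31 and 193 of 20698 features. The unadjusted counts were 1 higher and 2 lower in brain (7.69% and 15.4%, all features 7.32% and 6.47%). In heart they were 3 higher and 0 lower (27.3% and 0%, all features 7.28% and 6.22%). Limma-voom called 0 in brain and heart, and DESeq2 called 0 in brain and 1 higher in heart, beside 442 of 19452 features higher.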

How the data were processed

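RNA was sequenced by the authors from 54 mouse tissue samples, 34 of the aged cohort and 20 of the dementia cohort. Libraries were stranded and oligo-dT selected. Per the submitters' processing notes, reads were trimmed with Trimmomatic 0.32, aligned with HISAT2 2.1.0 and counted per Ensembl gene with HTSeq 0.11.0, and the authors deposited raw counts of reads per gene without normalization. The genome build used for counting is not given in the sources used here, so positions and sequences come from NCBIM37 with GENCODE vM1. Some counted identifiers, such as ENSMUSG00000094446, ENSMUSG00000097073 and ENSMUSG00000103897, have no position in GENCODE vM1. The values for copies and windows may therefore differ in the build and annotation used for counting. In the study, genes were tested with limma-voom.

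Each file listed 54232 genes and 5 summary lines, which held 15.4% to 22.1% of reads and were left out. Symbols were paired with 32651 identifiers. CPM values used TMM sizes computed separately for each cohort, so levels set across cohorts were normalized separately, and log2 CPM used a prior count of 2. Tests used edgeR 4.0.16 (quasi-likelihood, R 4.3.3) on genes whose count exceeded 2 in 3 or more libraries of a fit. P-values were adjusted over all features by Benjamini and Hochberg, with a threshold of 0.05. Treatment was fitted within each aged tissue, tissue over all 34 aged libraries in 6 groups, and gene lists of the dementia cohort over its 20 libraries in 4 groups. The tests were checked on simulated counts with a seed of 20231212. Intervals and floors (3 counts) cover counting error only.

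Members, gene lists (ribosomal proteins, heparan sulfate proteoglycans, cell markers) and tests were chosen with earlier results of these data known. Named genes were the members, the 8 features most and the 4 least correlated with Rpl29 over the dementia libraries, the 4 nearest chromosomal neighbours and the 3 of highest and lowest correlation, features with symbols beginning Rpl29, the 3 ribosomal protein genes of largest and of smallest SD, called list members, App and Prnp. Features most correlated without s140, s152 and s155 were named as well. Of the called list members in the tissue comparisons some are given and the others are not reported here. Groups followed titles. Alternatives were DESeq2 1.42.0, limma-voom 3.58.1, RLE size factors, other filters and priors, replicate s139 as Cmpd60 or left out, kidney groups by the treatment field, and each library left out in turn.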

Additional observations from a re-analysis of the deposited data

Results flagged for a closer look

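ENSMUSG00000094446 stood apart in 2 aged brain libraries. In the Cmpd60 group replicate 33 read 10.2 CPM, far below the other 5 libraries of its group, and in the vehicle group replicate 29 read 14.8 CPM, the lowest of 6, beside a narrow range of the others up to 17.5 CPM. Both were marked because the gap to the nearest library took up most of the range of the group on the log2 scale. In all, 30 sets of libraries were examined in this way (3 features in 10 groups), of which chance marks about 1 in 20. Replicate 33 also had the lowest Rpl29 of its group, 38.2 CPM, and replicate 29 the lowest of its own, 36.4 CPM. The causes were not tested.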

How the results depend on the processing

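No paired analysis was possible because replicate numbers in the labels are unique to each library. Tests of Rpl29 in aged tissue kept their side of the threshold with DESeq2, limma-voom, RLE size factors, no filter on low values, a minimum of 10 counts and, for tissues, only the 2 groups compared. The log2 fold change ran from 0.26 to 0.33 in kidney, -0.024 to -0.015 in brain and 0.064 to 0.068 in heart for Cmpd60, from 0.86 to 1.002 for kidney over brain, 0.74 to 0.82 for heart over brain and 0.11 to 0.18 for kidney over heart. With each library left out in turn it ran from 0.17 to 0.45, from -0.0656 to 0.0207 and from -0.0150 to 0.103 for Cmpd60 and, for tissues, from 0.92 to 1.05, 0.76 to 0.84 and 0.11 to 0.24. The sign of estimates near 0 turned in 4 of these, in brain to 0.0207 without Cmpd60 replicate 33, 0.00827 without vehicle replicate 27 and 0.00993 without vehicle replicate 30, and in heart to -0.0150 without Cmpd60 replicate 72, with adjusted p from 0.939 to 0.981. With the kidney groups taken from the treatment field, chosen after seeing the data, the log2 fold change was -0.32 for Cmpd60 in kidney (adjusted p = 0.569), 1.31 for kidney over brain and 0.51 for kidney over heart, which then passed (adjusted p = 0.00189). For ENSMUSG00000094446 in aged brain, for which these alternatives were chosen after seeing the data, the log2 fold change for Cmpd60 ran from -0.27 to -0.12 and the adjusted p from 0.189 to 0.5002.

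The largest step of Rpl29 in the dementia cohort was 3.16 to 3.45 log2 units with RLE sizes, a prior of 5 counts, plain totals and the sum of the 3 members, always between the same 7 and 13 libraries. With a prior of 0.5 counts it was 4.83 and lay between s152 and s155, without a read, and the other 18, since the smaller prior widens the step from 0. Without each library in turn it ran from 3.22 to 4.55, the highest without s154. List members called in the dementia cohort stayed at 0 with s139 as Cmpd60, without it, with the filter of 10 counts, with limma-voom, without s140, s152 and s155 together and with every library left out in turn. The settings that leave out libraries of the dementia cohort were added after seeing the data, other than the list counts without s139. A count of 0, as for Rpl29 in s155, allows up to 0.119 CPM there.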
